A study of Eublepharis macularius with 18 samples.

Results

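Tagln, Cnn1, Acta2 and Mylk encode proteins of the contractile apparatus of smooth muscle and of myofibroblasts, and their transcripts were followed through cryoinjury of the leopard gecko (Eublepharis macularius) ventricle. Members were the rows of the deposited normalized count table whose mouse symbol was Tagln (ENSMUSG00000032085), Cnn1 (ENSMUSG00000001349), Acta2 (ENSMUSG00000035783) or Mylk (ENSMUSG00000022836). Each symbol had 1 row, so 4 of 12376 rows were members, and all 4 passed the filter on low values that left 9887 rows for testing. The 18 libraries came from polyA RNA of 18 geckos in 6 groups of 3: control, sham, and injured ventricle at 3, 14, 30 and 100 days post injury (dpi). In the injured animals a cold metal probe was applied to the ventricle through an opened pericardium, and tissue beside the injury was taken. Control and sham animals gave a comparable piece of ventricle. When the sham animals were sampled is not given in the labels, nor are age, sex or a sequencing batch.

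Smooth muscle contracts when a rise in calcium activates myosin light chain kinase, the product of Mylk, which phosphorylates the regulatory light chain of myosin and lets it pull on actin filaments. Acta2 encodes the smooth muscle alpha-actin of those filaments, Cnn1 encodes calponin, which binds actin and restrains myosin, and Tagln encodes transgelin (SM22 alpha), an actin-binding protein. In mammals the serum response factor Srf with myocardin family coactivators drives these genes, vessel walls express them, and fibroblasts of healing heart tissue gain Acta2 and Tagln when they become myofibroblasts. Acta2 is also known from heart muscle cells of mammalian and bird embryos. In bulk tissue, fewer cells of a type and less RNA per cell cannot be told apart.

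The 4 genes differed widely in level when read counts were divided by transcript length. FPKM, a level scaled to transcript length and to the reads of the library, had for Acta2 a median of 1467 over the 18 libraries and ran from 920 to 2710, placing it between rank 20 and rank 84 of all rows in every library. Cnn1 had a median FPKM of 253 and ran from 188 to 565. Mylk had a median FPKM of 2.55, and Tagln one of 0.772 with a range from 0.0519 to 31.1. By these values Acta2 and Cnn1 were abundant ventricle transcripts in all animals, while Mylk and Tagln were rare ones. Reads of stretches shared with other actins may have been divided among them, so the separate level of Acta2 is uncertain. The cardiac actin Actc1 had a median FPKM of 4885, and Myh11, the smooth muscle myosin heavy chain and a defining marker of that cell type, had one of 0.177. Cardiomyocyte markers summed to FPKM values from 11710 to 16897 in the 18 libraries, so the defining transcripts of ventricle muscle were present in each.

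Differences between groups were tested with limma on log2(normalized count + 1), so every log2 change below is on that scale. Calls required an adjusted p under 0.05, by Benjamini-Hochberg over all 9887 tested genes. Over the 6 groups the moderated F test called Tagln (limma adjusted p = 0.000992), Cnn1 (0.00165) and Mylk (0.0039), and it did not call Acta2 (0.431). The same test called 16.2% of all tested genes. The comparisons against control share the 3 control animals, and those against sham share the 3 shams. The 3 called members followed 3 different courses: Tagln was high at 3 and 14 dpi, Cnn1 was high in the controls, and Mylk was highest at 100 dpi.

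**Figure D1:**
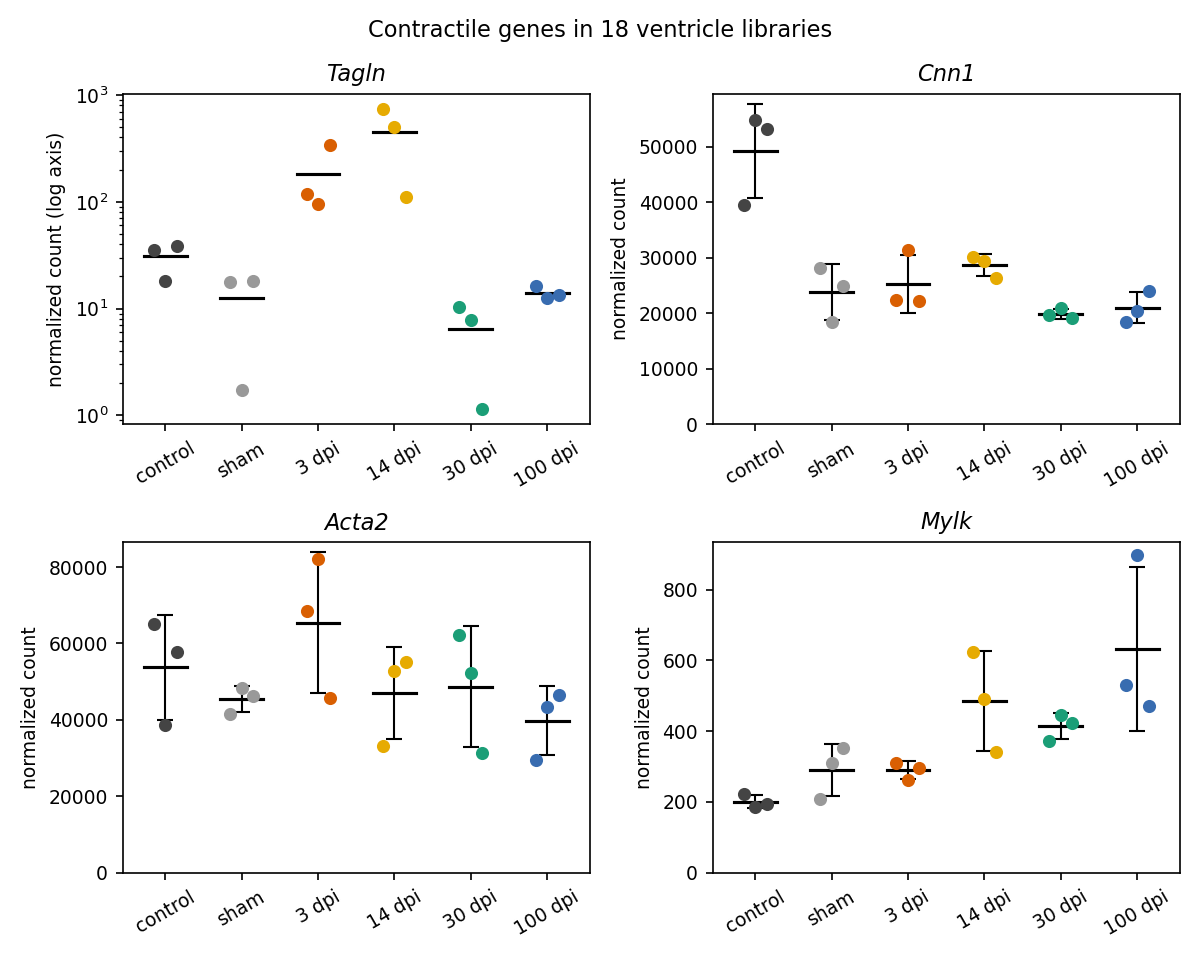
Normalized count of each gene in the 18 libraries by group, on a log axis for Tagln and on linear axes from 0 for Cnn1, Acta2 and Mylk. Points are animals, long bars are group means and whiskers are 1 SD (left out for Tagln). The 6 Tagln values at 3 and 14 dpi lie between 96.0 and 747, above all others, and the 3 Cnn1 control values lie above all others.

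Tagln was the member with the widest range. Its normalized counts were 35.2, 18.2 and 38.9 in the 3 controls and 17.9, 1.71 and 18.0 in the shams. At 3 dpi they were 117, 96.0 and 339, and at 14 dpi they were 747, 506 and 111. At 30 dpi they were 10.3, 7.91 and 1.14, and at 100 dpi they were 16.2, 12.5 and 13.5. The 6 libraries of 3 and 14 dpi were thus all above the 12 others, with the lowest early value at 96.0 and the highest other value at 38.9. Such a separation, which was noticed in the values and not tested as such, was found for 42 of the tested genes (0.425%). The value in sham 2 was made of 2 reads and the value in 30 dpi 3 of 1 read, both under a floor of 3 reads that equals 1.45 to 3.95 normalized counts by library.

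Against sham, Tagln rose at 3 dpi to 184 ± 134 normalized counts from 12.5 ± 9.37 (SD, n = 3 each), a log2 change of 3.99 with a standard error (SE) of 0.84 (limma adjusted p = 0.0402). It was the 1 member called in that comparison, where 0.971% of all tested genes were called. At 14 dpi it measured 454 ± 321, a log2 change of 5.14 against sham (limma adjusted p = 0.0092), again the 1 member called beside 0.738% of all genes. The 3 dpi call was lost when any sham library, 3 dpi 1 or 3 dpi 3 was left out (limma adjusted p from 0.0609 to 0.152), and when only the groups compared were fitted (0.161), within a range of 5.62e-05 to 0.161 over all alternatives. The 14 dpi call was lost without sham 2, 14 dpi 1 or 14 dpi 2 (limma adjusted p from 0.0565 to 0.0644) and with only the groups compared (0.0961). Of the left-out libraries, sham 2 with its 2 reads lowered both folds most, and without it the changes were 3.05 at 3 dpi and 4.20 at 14 dpi on the log2 scale. Without 14 dpi 3, the lowest library of its group, the change at 14 dpi was 5.96. With a pseudocount of 10 the changes were 3.00 and 4.11, and both were called.

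Against control the same rises were smaller and were not called by limma. The log2 change of Tagln was 2.38 (SE 0.84) at 3 dpi (limma adjusted p = 0.181) and 3.52 at 14 dpi (0.0611), although all 3 libraries of each time lay above all 3 controls, as they did for 10.4% of all tested genes at 3 dpi and 13.6% at 14 dpi. At 3 dpi DESeq2 called the change (2.58, adjusted p = 0.0139), in a range up to 0.465 over the alternatives. At 14 dpi the call depended on the setting as well, with limma adjusted p = 0.0362 without 14 dpi 3, 0.0281 in edgeR and 1.51e-05 in DESeq2, in a range up to 0.255. The libraries of 14 dpi also differed among themselves, since 14 dpi 3 held 111 normalized counts and 14 dpi 1 held 747. At 30 and 100 dpi the log2 changes against control were -2.34 (limma adjusted p = 0.0831) and -1.01 (0.466), and all 6 values were below the lowest control value of 18.2. DESeq2 called the change at 30 dpi (-2.26, adjusted p = 0.0321), in a range up to 0.304. At these times 13.5% and 17.4% of all tested genes lay below all controls. The order of the group means was 14 dpi, 3 dpi, control, 100 dpi, sham and 30 dpi. The ranges of 14 and 3 dpi overlapped, as did those of 100 dpi with sham and of sham with 30 dpi.

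The fall of Tagln after 14 dpi was the largest log2 change of any member in the 14 comparisons. From 14 to 30 dpi the log2 change was -5.86 (SE 0.84, limma adjusted p = 0.00177), and all 3 libraries at 30 dpi lay below all 3 at 14 dpi, as for 12.1% of all tested genes. It was the 1 member called of 4, in a comparison that called 3.97% of all tested genes. With 30 and 100 dpi pooled as late and 3 and 14 dpi as early (6 animals each), the log2 change of Tagln was -4.63 (SE 0.59, limma adjusted p = 0.000139). All late values lay below all early ones, as for 1.86% of all tested genes. That comparison called 2 of the 4 members, both lower, beside 16.7% of all tested genes, of which 9.36% were higher and 7.37% lower. From 3 to 14 dpi the log2 change was 1.15, with a 95% interval from -0.63 to 2.92 and no call (limma adjusted p = 0.594). From 30 to 100 dpi it was 1.32, from -0.46 to 3.10 (0.472). Both calls of the fall held under every alternative tried, each left-out library included, with limma adjusted p up to 0.0264 for the step from 14 to 30 dpi. With single libraries left out that step ranged from -6.68 without 14 dpi 3 to -5.12 without 30 dpi 3, and with a pseudocount of 10 it was -4.50.

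**Figure D2:**
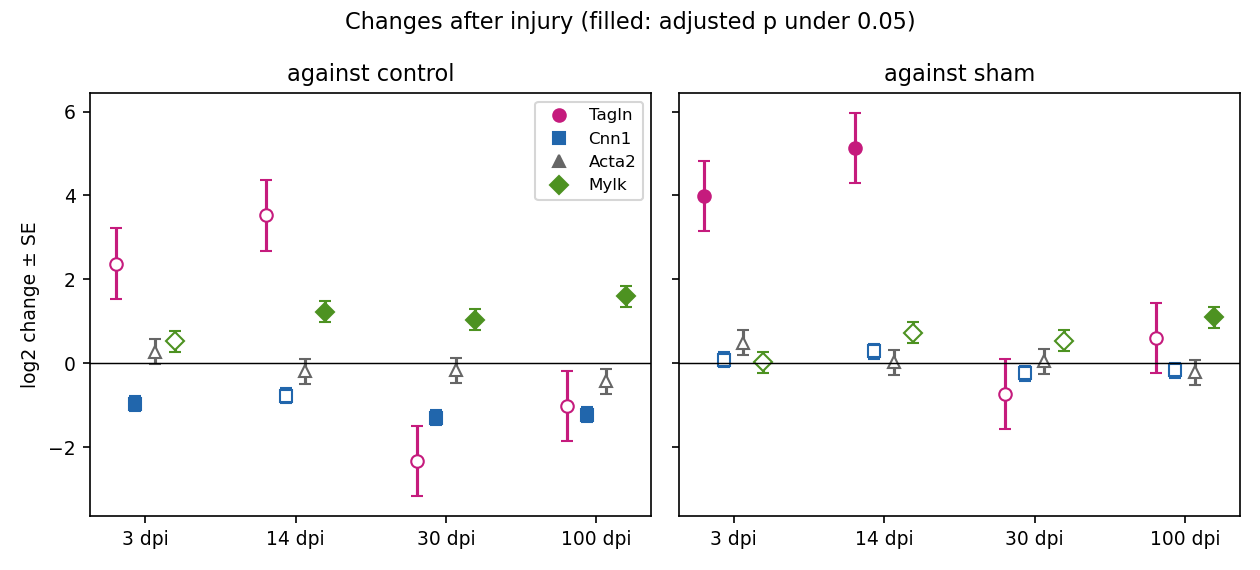
Log2 change of the 4 genes at each time after injury, against control (left) and against sham (right), with 1 SE from limma. Filled symbols have an adjusted p under 0.05: Cnn1 at 3, 30 and 100 dpi and Mylk at 14, 30 and 100 dpi against control, and Tagln at 3 and 14 dpi and Mylk at 100 dpi against sham.

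Cnn1 was highest in the controls. Its normalized counts were 39476, 54787 and 53215 in the controls and 28131, 18338 and 24885 in the shams. At 3 dpi they were 22402, 31332 and 22122, and at 14 dpi they were 30061, 29417 and 26333. At 30 dpi they were 19754, 20861 and 19074, and at 100 dpi they were 18477, 20465 and 24012. Every control library was therefore above each of the 15 others, whose highest value was 31332 in 3 dpi 2. This arrangement, again noticed in the values, was found for 40 of the tested genes (0.405%).

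The sham group shared the lower level. Sham animals measured 23785 ± 4989 against 49159 ± 8423 in controls (SD, n = 3 each), a log2 change of -1.05 (SE 0.18) with an unadjusted p of 2.73e-05 and a limma adjusted p of 0.0796. No member was called between sham and control, and limma called none of the 9887 tested genes there (0%). At an unadjusted p under 0.05 it had 479 genes, 1 of them a member, while edgeR called none and DESeq2 called 29. The sham and control libraries did not overlap for Cnn1 and Tagln, both lower in sham, where 6% of all tested genes did the same. DESeq2 called Cnn1 in that comparison (adjusted p = 1.6e-05), as did limma without control 1 (adjusted p = 0.0359), in a range from 1.6e-05 to 0.608.

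Against control, Cnn1 fell at 3 dpi by 0.96 (log2, limma adjusted p = 0.0395), where it was the 1 member called beside 0.334% of all tested genes. At 14 dpi the log2 change was -0.77, with a limma adjusted p of 0.0589 and all 3 libraries below the controls, as for 13.1% of all tested genes. That change was called by DESeq2 (adjusted p = 0.00198) and with the length trend removed (limma adjusted p = 0.0306), in a range up to 0.188. It fell by 1.29 at 30 dpi (limma adjusted p = 0.000371) and by 1.22 at 100 dpi (0.000638). At each of these 2 times Cnn1 and Mylk were the 2 members called, in opposite directions, beside 11.3% and 12% of all tested genes. The 3 dpi call was lost without any control library, without 3 dpi 1 and without 3 dpi 3 (limma adjusted p from 0.0523 to 0.171), and with only the groups compared (0.187), in a range from 7.43e-05. The calls at 30 and 100 dpi held under every alternative tried.

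Against sham, no time after injury was called for Cnn1. The log2 changes were 0.09 at 3 dpi (95% interval from -0.29 to 0.47), 0.29 at 14 dpi (-0.10 to 0.67), -0.24 at 30 dpi (-0.62 to 0.15) and -0.17 at 100 dpi (-0.55 to 0.22). These intervals leave room for changes of either sign. The 3 dpi value turned negative without sham 2 or 3 dpi 2. Among the injured groups Cnn1 fell from early to late times by 0.39 in log2 (SE 0.13, limma adjusted p = 0.0472), with overlapping ranges. The call was lost when any of 9 of the 12 injured libraries was left out (limma adjusted p up to 0.112) and under 4 other settings. Cnn1 was lower by 0.53 in the 12 injured than in the 6 uninjured animals (limma adjusted p = 0.00586), and this call held under every alternative. It was 1 of the 2 members called there, beside 12.9% of all tested genes. That uninjured pool joined controls (mean 49159) and shams (mean 23785), whose Cnn1 ranges did not overlap. The group means ran from control through 14 dpi, 3 dpi, sham and 100 dpi to 30 dpi, and each neighbouring pair below control overlapped.

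Skeletal muscle markers divided with respect to Cnn1. All 8 genes of that list were measured and 5 were tested, and the summed FPKM of the 8 ran from 9754 to 13021 in the controls, from 7892 to 10137 in the shams and from 5508 to 9505 in the injured groups. Most of the sum came from the creatine kinase Ckm, which heart muscle also uses, at 257827, 230393 and 294592 normalized counts in the controls. The actin Acta1, also on the list, had FPKM values from 243 to 960 over the libraries. Ckm fell by 0.64 at 30 dpi and by 0.63 at 100 dpi against control (log2, limma adjusted p = 0.0421 and 0.045). The myosin Myh1 and the troponin Tnni2 of fast skeletal muscle had means of 10.9 and 7.07 normalized counts over all libraries. The median log2 change of the 5 tested genes was 0.55 at 3 dpi against control and 0.92 against sham, opposite in sign to Ckm there. None of the 5 was called at 3 dpi, beside 0.334% of all tested genes against control and 0.971% against sham. Their median was -0.64 at 30 dpi and -0.75 at 100 dpi against control. At each of these times 2 of the 5 were called lower, beside 3.95% and 4.45% of all tested genes. The part of such tissue in the level of Cnn1 was not tested.

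Acta2 showed no change called by limma in any of the 14 comparisons. Its normalized counts were 65213, 38539 and 57658 in the controls and 41632, 48216 and 46280 in the shams. At 3 dpi they were 68546, 82088 and 45704, and at 14 dpi they were 33295, 52784 and 55211. At 30 dpi they were 62342, 52332 and 31451, and at 100 dpi they were 29493, 43466 and 46523. Animals of 1 group differed from each other about as much as the groups did, and the ranges of all neighbouring groups in the order of means (3 dpi, control, 30 dpi, 14 dpi, sham, 100 dpi) overlapped. The highest mean was 65446 ± 18389 at 3 dpi and the lowest was 39827 ± 9080 at 100 dpi (SD, n = 3 each).

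The intervals show what these animals could have hidden. Against control the log2 change of Acta2 was 0.28 at 3 dpi (95% interval from -0.35 to 0.90), -0.19 at 14 dpi (-0.82 to 0.43), -0.17 at 30 dpi (-0.79 to 0.46) and -0.43 at 100 dpi (-1.05 to 0.20). Against sham the largest change was 0.49 at 3 dpi (-0.14 to 1.11, limma adjusted p = 0.372). Late against early times gave -0.34 (-0.78 to 0.10, 0.286), and injured against uninjured gave -0.02 (-0.40 to 0.36, 0.956), a value whose sign changed with the setting. A 2-fold rise against control lies outside the interval at each time. The 3 dpi libraries at the top, 3 dpi 1 and 3 dpi 2, were not those with the most Tagln, since 3 dpi 3 held the most Tagln of that group and the least Acta2.

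Mylk had its lowest mean in the controls and its highest at 100 dpi. Its normalized counts were 222, 186 and 195 in the controls and 209, 309 and 353 in the shams. At 3 dpi they were 311, 263 and 296, and at 14 dpi they were 623, 491 and 340.1. At 30 dpi they were 373, 445 and 423, and at 100 dpi they were 529, 898 and 472. All 12 injured libraries were above all 3 controls, as for 1.85% of all tested genes. Sham 1, at 209, lay within the control range, while sham 2 and sham 3, at 309 and 353, lay above all 3 controls. The sham mean of 291 was close to the 3 dpi mean of 290. The group means ran from 100 dpi through 14 dpi, 30 dpi, sham and 3 dpi to control. The ranges of 100 and 14 dpi overlapped, as did those of 14 and 30 dpi and of sham and 3 dpi.

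Against control the log2 change of Mylk was 0.53 at 3 dpi (SE 0.25, limma adjusted p = 0.318). It rose by 1.23 at 14 dpi (limma adjusted p = 0.0368), the 1 member called beside 0.89% of all tested genes. It rose by 1.04 at 30 dpi (0.014) and by 1.59 at 100 dpi (0.000865), from 201 ± 18.9 in controls to 633 ± 232 normalized counts (SD, n = 3 each). Against sham it rose by 1.09 at 100 dpi (limma adjusted p = 0.0138), the 1 member called beside 7.14% of all tested genes. The changes of 0.73 at 14 dpi and 0.54 at 30 dpi against sham were not called (0.233 and 0.215), and no member was called at 30 dpi against sham, where 7.25% of all tested genes were. Injured against uninjured animals gave a rise of 0.85 (limma adjusted p = 0.00228), and late against early times gave 0.44 (95% interval from 0.07 to 0.81, 0.0969). No member was called between 3 and 14 dpi or between 30 and 100 dpi, beside 0% and 0.769% of all tested genes. At an unadjusted p under 0.05 limma had 1205 genes between 3 and 14 dpi, 1 of them a member (Mylk). In that comparison edgeR called none and DESeq2 called 95, and no member was among the 95.

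The 100 dpi rise against control held under every alternative. The 14 dpi call was lost without any of the control libraries, without 14 dpi 1 or 14 dpi 2 (limma adjusted p from 0.0708 to 0.178) and with only the groups compared (0.0575), in a range from 0.00044 to 0.178. The 30 dpi call was lost without control 2 or 30 dpi 3 (limma adjusted p = 0.0539 and 0.0503), and the 100 dpi call against sham without sham 1 or 100 dpi 2 (0.0731 and 0.069).

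Transcript length moved with the late comparisons. Mylk lay at percentile 93.3 of tested genes by transcript length, in the longest of 10 equal bins. Of the 989 genes in that bin, 25.9% were called higher than control at 30 dpi and 24.3% at 100 dpi, against 7.37% and 7.56% of all tested genes. The median log2 change of the bin was 0.33 at 30 dpi and 0.23 at 100 dpi, against 1.04 and 1.59 for Mylk. With the trend of each library on transcript length removed, the 30 dpi change of Mylk was 0.72 and was no longer called (limma adjusted p = 0.092), in a range from 0.00177 to 0.092. The 100 dpi change was 1.35 and was still called. Tagln lay at percentile 12.4, Acta2 at 22.2 and Cnn1 at 81.4, and in that setting Cnn1 was still called at 30 and 100 dpi against control and Tagln from 14 to 30 dpi.

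**Figure D3:**
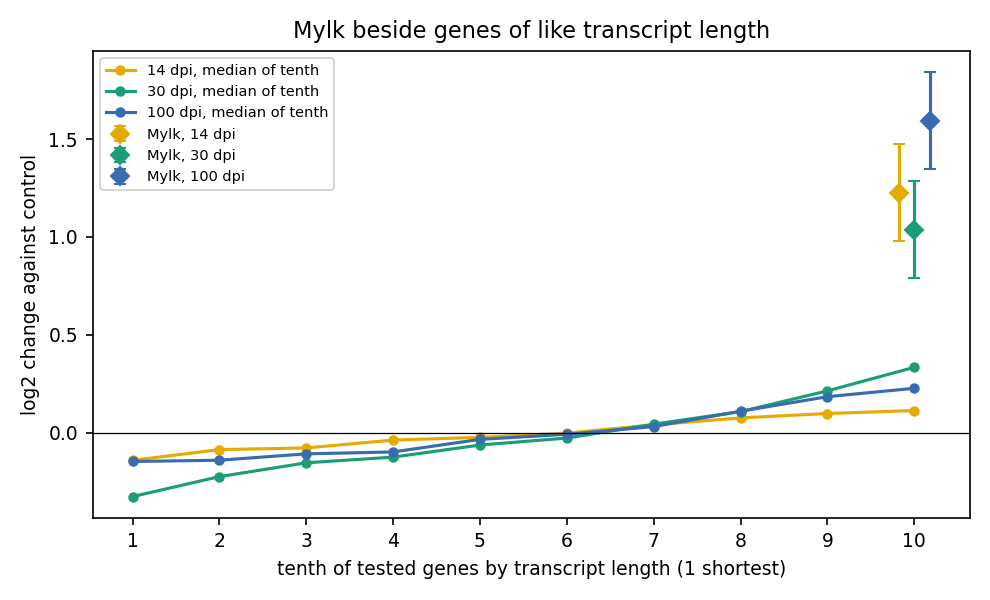
Log2 change against control of Mylk (diamonds, with 1 SE) and the median over the tested genes of each of 10 equal bins of transcript length (lines), at 14, 30 and 100 dpi. The medians climb with length to 0.33 at 30 dpi in the longest bin, where Mylk is at 1.04.

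The summed level of endothelial markers was also highest at 100 dpi. The endothelial list had 5 of 8 genes measured, and their summed FPKM ran from 76.3 to 93.3 at 100 dpi, above the 42.1 to 69.4 of the other 15 libraries. Cdh5, the cadherin of endothelial junctions, rose against control by 1.58 at 14 dpi, by 1.99 at 30 dpi and by 2.49 at 100 dpi (limma adjusted p = 0.00926, 0.000191 and 3.02e-05). At 100 dpi against control all 5 changes were positive, and Cdh5 was the 1 gene called higher, beside 7.56% of all tested genes. Vwf, the clotting carrier protein of endothelium, fell from early to late times by 1.99 (limma adjusted p = 0.0161), so the list did not move as a whole. Mural cell markers, which label the contractile cells of vessel walls, had 7 of 11 genes measured. Their summed FPKM ran from 50.5 to 67.3 in controls, from 50.5 to 92.5 at 30 dpi and from 58.4 to 78.7 at 100 dpi. Of these markers Kcnj8, a potassium channel of pericytes, rose by 1.33 at 14 dpi and by 1.38 at 30 dpi against control (limma adjusted p = 0.0448 and 0.00669). Against control, 1 of the 5 tested mural markers was called higher at 14 dpi and 2 at 30 dpi, beside 0.718% and 7.37% of all tested genes. None of the 5 was called at 100 dpi, beside 12%. In injured against uninjured animals 2 of the 5 were called higher, beside 8.39%. The part of these cells in the rise of Mylk was not tested.

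The 4 genes did not vary together as a set over the animals, and no pair passed on both the Pearson and the Spearman correlation. Of the 6 pairs, 1 had a Pearson correlation of log2 values that passed the adjustment over the pairs: Cnn1 with Mylk, r = -0.618 (permutation test, p = 0.0062, adjusted 0.0372, n = 18) and a Spearman rank correlation of -0.509 (permutation p = 0.0341, adjusted 0.102). The call was lost when any of 7 single libraries was left out (control 1, 2 or 3, 3 dpi 2, 30 dpi 2, 100 dpi 1 or 100 dpi 3, adjusted permutation p from 0.052 to 0.145) and with the FPKM table (0.0573), in a range from 0.0115. Without control 2 and control 3, the libraries farthest from the Cnn1 median, r was -0.384. After group means were removed, over all 18 libraries, it was -0.259. The relation was thus weaker in both cases, and neither value was tested. Tagln with Cnn1 had a Spearman rank correlation of 0.635 (permutation p = 0.00541, adjusted 0.0325) but an r of 0.32 (permutation p = 0.198, adjusted 0.396). The r of this pair was 0.309 without 14 dpi 1 and 14 dpi 2, and 0.284 after group means were removed. The remaining 4 pairs had r between -0.382 and 0.217 with adjusted permutation p from 0.349 to 0.907. Tagln and Acta2, the pair that marks myofibroblasts in mammals, had r = 0.217 and, within groups, -0.055. Without 14 dpi 1 and 14 dpi 2, the libraries farthest from the Tagln median, the r of this pair was 0.484.

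In the ratio of 2 members within a library the scaling between libraries cancels, apart from the 1 added to each normalized count. From early to late times the mean log2 ratio of Tagln to Cnn1 changed by -4.24, that of Tagln to Acta2 by -4.29 and that of Tagln to Mylk by -5.07. Each of these had an exact permutation p of 0.00216 over 924 splits (two-sided, adjusted 0.00433 over the 6 pairs, n = 6 against 6), the smallest the design can give, and the early and late ranges did not overlap. The ratio of Cnn1 to Mylk changed by -0.83 (exact permutation p = 0.00649, adjusted 0.00974). Cnn1 to Acta2 changed by -0.05 (exact permutation p = 0.851) and Acta2 to Mylk by -0.78 (exact permutation p = 0.119, adjusted 0.143). Tagln thus fell against each of the other 3 members, and Cnn1 fell against Mylk. The 3 Tagln ratios reuse the separation of early from late Tagln values given above, so they are not independent of it. Over the alternative settings the change for Tagln to Cnn1 ran from -4.45 to -3.26.

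Each member belongs to a family whose other genes were measured in the same libraries. Acta2 is one of 6 actins, whose proteins are nearly identical, so reads of shared stretches may have been divided among them and their separate values are uncertain. By median FPKM the order was Actc1 (4885), Acta2 (1467), Acta1 (598), Actb (501), Actg1 (214) and Actg2 (22.5). Actg2, the actin of gut smooth muscle, fell from early to late times by 2.33 (log2, limma adjusted p = 0.0399), and cytoplasmic Actb fell by 0.57 (0.0192). Actc1, Acta1 and Actg1 were not called in any comparison. Of the calponins, Cnn1 had a median FPKM of 253, Cnn3 22.4 and Cnn2 3.51, and the minor ones fell from early to late times by 0.28 and 0.95 (limma adjusted p = 0.0387 and 0.0442).

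Tagln was a minor member of its own family. Tagln2, which many cell types express, had a median FPKM of 71.6 against 0.772 for Tagln, and Tagln3, the neuronal form, had one of 1.29. Neither was called in any comparison, and Tagln2 reached its highest normalized count of 6046 in 3 dpi 3. Mylk, at a median FPKM of 2.55, was similarly below Mylk3, the cardiac kinase, at 169. Mylk3 was not called in any comparison, and Mylk2, the skeletal muscle kinase, had 0 to 17 reads and was under the filter. Of 10 paralogues tested, 4 were called lower from early to late times and none higher, beside 7.37% and 9.36% of all tested genes, with a median log2 change of -0.41 against -0.01 for all tested genes.

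**Figure D4:**
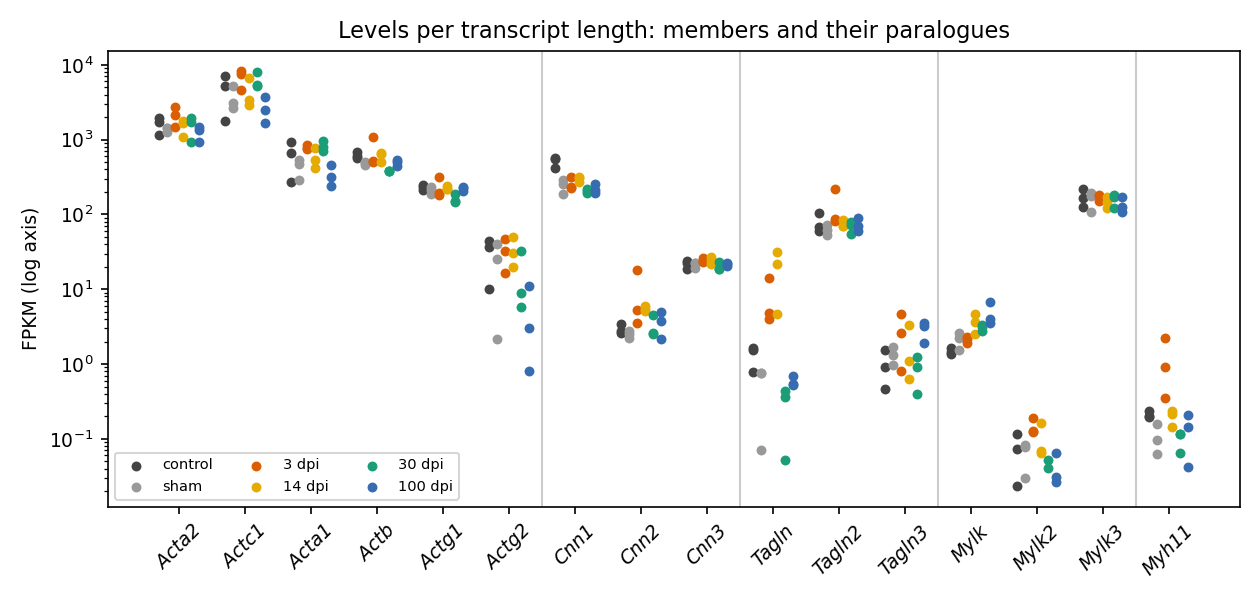
FPKM (log axis) of each gene and its paralogues in the 18 libraries, coloured by group, with families separated by vertical lines. Tagln spans 0.0519 to 31.1 while Tagln2 stays between 53.6 and 220.1, and Mylk lies below Mylk3 in all libraries. Values of 0 cannot be drawn on this axis.

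The wider contractile apparatus of smooth muscle was called in both directions. Of 24 listed genes, 20 were tested, and from early to late times 6 were called lower (7.37% of all tested genes) and 3 higher (9.36%), with a median log2 change of -0.24 against -0.01 for all tested genes. Myh11 had 45.9, 118 and 296 normalized counts at 3 dpi and between 5.78 and 31.9 in the 15 other libraries. It rose at 3 dpi against sham by 3.06 (limma adjusted p = 0.0383), and unlike Tagln it was back at 19.1, 31.9 and 28.8 at 14 dpi. Lmod1, a leiomodin that seeds actin filaments in smooth muscle, had 95.9, 147 and 258 normalized counts at 3 dpi and 57.4, 59.3 and 11.4 at 30 dpi. It fell from early to late times by 2.48 (log2, limma adjusted p = 0.00387). The LIM protein Csrp1 and tropomyosin Tpm1 fell by 0.47 and 0.66 (limma adjusted p = 0.00408 and 0.0175). The integrin subunit Itga1 rose by 0.69 (0.0113) and phosphoglucomutase-like Pgm5 of adhesion plaques by 0.40 (0.0198). Smtn, which encodes smoothelin, was not called in any comparison.

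Genes that set myosin phosphorylation were called in both directions as well. Of 21 listed, 19 were tested, and from early to late times 2 were called higher and 4 lower, with a median log2 change of -0.25. Of all tested genes 9.36% were called higher there and 7.37% lower, so the count of higher genes was near that of any genes. The kinases Rock1 and Rock2, which inhibit myosin phosphatase, rose by 0.55 and 0.45 (limma adjusted p = 0.000137 and 0.00285). The light chain Myl12b fell by 0.30 (0.0345). Ppp1r12b, a targeting subunit of myosin phosphatase, rose against control by 0.67 at 100 dpi (limma adjusted p = 0.0145). Rock1 lay at percentile 91.6 of transcript length, close to Mylk.

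Of 15 genes listed for Srf and its partners, which act on such genes, 10 were tested, and at 100 dpi 3 were called higher and 1 lower than control, beside 7.56% and 4.45% of all tested genes. None of the 10 was called at 3 or 14 dpi against control or sham, where under 1% of all tested genes were called, so this count is near that of any genes. Srf itself was at 3549, 4890 and 4517 normalized counts at 3 dpi and at 2617, 2918 and 2536 at 100 dpi. It fell against control by 0.88 at 100 dpi (limma adjusted p = 0.0161). In that comparison Cnn1 was called lower (-1.22) and Mylk higher (1.59), while Tagln and Acta2 were not called. No gene of the list, Srf included, was called lower at 100 dpi against sham or from early to late times. Of all tested genes 1.6% and 7.37% were called lower there. The coactivator Mrtfb rose against control by 0.93 at 30 dpi and by 0.67 at 100 dpi (limma adjusted p = 0.000997 and 0.0101). Elk4 and Tead1, transcription factors that can act with or against Srf, rose at 30 dpi by 0.47 and 0.89 (limma adjusted p = 0.00718 and 0.00684). Myocd, the smooth and heart muscle coactivator, was not called in any comparison.

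Of the TGF-beta list, whose ligands drive myofibroblast formation in mammals, 12 of 14 genes were tested. None was called at 3 or 14 dpi against control or sham, again beside under 1% of all tested genes. From early to late times Tgfb2 and Tgfb3 fell by 0.74 and 0.49 (log2, limma adjusted p = 0.00602 and 0.045), and Skil, an inhibitor of Smad proteins, rose by 0.53 (0.00764). They were the 2 genes called lower and the 1 called higher, beside 7.37% and 9.36% of all tested genes. At 100 dpi 2 of the 12 were called higher and none lower, against control and against sham alike. Of all tested genes 7.56% and 5.54% were called higher there, and 4.45% and 1.6% lower.

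Matrix genes of activated fibroblasts were also higher at early than at late times. Of 13 listed, 11 were tested, and from early to late times 10 were called lower and none higher, beside 7.37% and 9.36% of all tested genes, with a median log2 change of -1.19. Tenascin Tnc fell by 2.60, thrombospondin Thbs2 by 2.94 and collagen Col12a1 by 2.34 (limma adjusted p = 2.78e-05, 3.44e-05 and 0.000139). At 14 dpi against control Tnc rose by 2.29, Thbs2 by 3.00 and Col12a1 by 3.54 (limma adjusted p = 0.0132, 0.00722 and 0.00114). The change of Tagln there was 3.52 and was not called (limma adjusted p = 0.0611).

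By summed FPKM, single libraries separated matrix genes from Tagln. The summed FPKM of the 13 matrix genes was 512 to 850 at 3 and 14 dpi, 296 to 461 in control and sham, 225 to 739 at 30 dpi and 216 to 383 at 100 dpi. The value of 739 belonged to 30 dpi 3, the library in which Tagln was at 1 read. Within 14 dpi the matrix sum was 810, 850 and 772, while Tagln was 747, 506 and 111. The separation depended on the measure, since a sum follows the most abundant genes. The median log2 deviation of the tested matrix genes from their own means was 1.51, 1.32 and 0.90 in these libraries, in the order of Tagln. In 30 dpi 3 it was 0.32.

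Epithelial keratins of the epicardial list moved with Tagln too, with an r over the 18 libraries of 0.819 for Krt8 and 0.816 for Krt18. After group means were removed these were 0.292 and 0.357. Krt18 had 345, 243 and 2392 normalized counts at 3 dpi, 118, 515 and 688 at 14 dpi, and 26.3 to 116 in the 12 other libraries apart from 14.6 in sham 2. It fell from early to late times by 3.33 on the log2 scale and Krt8 by 3.56 (limma adjusted p = 0.00151 and 0.0014). Wt1, a transcription factor of epicardium, fell by 2.02 (0.00288). Of the 9 genes of the list 6 were measured and 5 were tested, and Upk1b was at 0 in all injured libraries. From early to late times 4 of the 5 were called lower and none higher, beside 7.37% and 9.36% of all tested genes. None of the 5 was called at 3 or 14 dpi against control or sham, where under 1% of all tested genes were. The summed FPKM of the list was 21.5 to 130 at 3 dpi and 14.0, 43.8 and 52.3 at 14 dpi, against 5.21 to 15.3 in the 12 other libraries. The library with the most Tagln, 14 dpi 1, had a sum of 14.0, within the range of the controls. The library with the highest sum, 3 dpi 3, also had the highest Myh11, Cnn2, Actb and Tagln2 of all libraries. The part of either cell type in the level of Tagln was not tested.

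**Figure D5:**
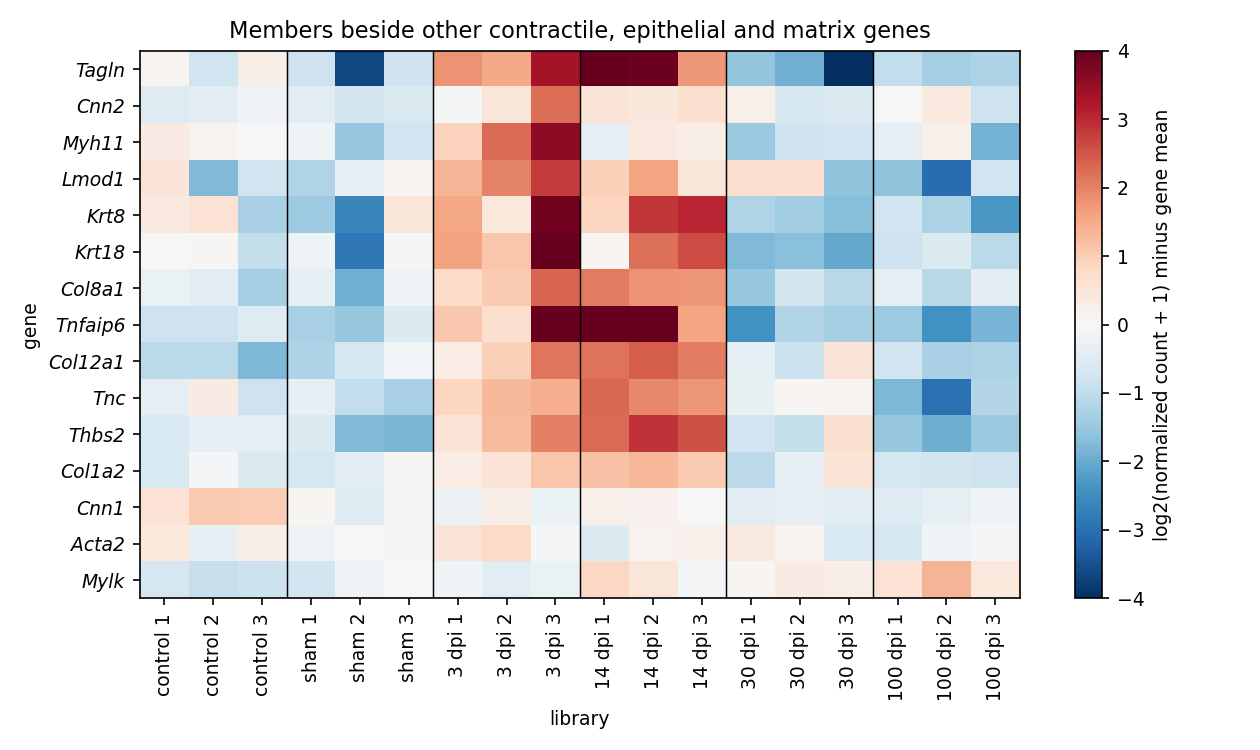
Log2(normalized count + 1) of each gene minus its mean over the 18 libraries, with red above and blue below the mean and the scale ending at 4 in both directions. Tagln, the keratins and the matrix genes are red at 3 and 14 dpi, Cnn1 is red in the controls, and Mylk is darkest in 100 dpi 2.

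For each member the genes with the most similar course were ranked by Pearson r of log2 values over the 18 libraries, among 9764 named candidates, as a description without a test. For Tagln they were Col8a1 (r = 0.904), a short-chain collagen, Tnfaip6 (0.893), a hyaluronan-binding secreted protein, Rhpn2 (0.862), Rtn4rl2 (0.861) and Gltp (0.855). Col8a1 had 65.3 to 194 normalized counts at 3 and 14 dpi and at most 34.3 in the 12 other libraries. Tnfaip6 had 7.38 to 130 at 3 and 14 dpi and 2.72 at most elsewhere, which was 3 reads or fewer in each of those libraries. For Mylk they were Serinc5 (0.9), Ptbp3 (0.888), Uhrf1bp1 (0.883), Ttc21b (0.879) and Phldb2 (0.875), of which 4 lay in the upper 2 length bins. For Cnn1 they were Eif4a3 (0.852), an RNA helicase of the exon junction complex, Tspyl1 (0.85), the small heat shock protein Hspb8 (0.815), Msto1 (0.809) and Exosc2 (0.807). For Acta2 they were Myl6 (0.863) and Myl12b (0.807), which are light chains of smooth muscle and nonmuscle myosin, with Pitpna (0.836), the heart kinase Tnni3k (0.813) and Pole4 (0.809). After group means were removed these r were 0.775 to 0.847 for Acta2, 0.402 to 0.955 for Cnn1, 0.492 to 0.647 for Tagln and 0.553 to 0.695 for Mylk. The likeness of Acta2 to its neighbours was thus mostly among animals of the same group. After group means were removed, the r of Acta2 was also 0.67 with Actc1, 0.53 with Acta1 and 0.55 with Mylk3. With genes of the smooth muscle list it was -0.32 for Myh11, -0.45 for Smtn, 0.135 for Actg2, 0.40 for Lmod1 and 0.53 for Des. Which cells held the Acta2 transcripts was not tested.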

How the data were processed

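RNA was extracted from each animal separately, per the labels' protocols, so replicates are animals. Alignment, assembly and quantification used HISAT2 2.2.0, StringTie 2.2.1 and Salmon 1.8.0, per the submitters' processing notes. Gecko transcripts were assembled and named after mouse genes, per the series' design text, so rows carry mouse identifiers. The authors deposited normalized counts (read signal, 12376 rows, 444 of them at 0 throughout) and, as the second deposited table, FPKM values. How the counts were normalized, and whether counting used strand, is not given in the sources used here, and reads that paralogues share may have been divided.

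Each normalized count was a whole multiple of a step particular to its library (tolerance 0.1 of a read), which gave 12646411 to 34898541 recovered reads per library. The floor of 3 reads covers counting error only. Rows averaging at least 10 normalized counts were tested (9887). The 6 groups entered 1 limma-trend model (limma 3.58.1, R 4.3.3) of log2(normalized count + 1), with 12 residual and 3.61 prior degrees of freedom and 14 two-sided comparisons. An exact test of 3 animals against 3 cannot reach a p under 0.1. Transcript length was the ratio of normalized count to FPKM. The model was also run on simulated counts, for 14 dpi against control only and with the same relative spread between animals for every gene. That run does not cover a spread as wide as that of Tagln, whose SD at 14 dpi was 70.7% of its mean.

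Alternatives were pseudocounts of 0.1 and 10, no filter, TMM factors, the FPKM table (pseudocount 0.1, minimum mean 0.5), removal of a loess trend on length, a block for the replicate number, a fit of the compared groups alone, the count tests of edgeR 4.0.16 and DESeq2 1.42.0 on recovered reads, and leaving out each library. Named genes are the 4 members, their paralogues, up to 6 genes of each further list (called genes first, then by mean) and the 5 genes most like each member. Further genes were picked after their values were seen. The members and lists were chosen with earlier results of these data known. No sequences or genome positions are given here. One gene of the list for myosin phosphorylation is not reported here.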

Additional observations from a re-analysis of the deposited data

Results flagged for a closer look

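In 3 results a member's level at one time after injury differed from that at another by a test of the difference itself. From 14 to 30 dpi the log2 change of Tagln was -5.86 (limma adjusted p = 0.00177), with 3 of 3 animals at 30 dpi below all animals at 14 dpi. From early to late times it was -4.63 (limma adjusted p = 0.000139), with 6 of 6 late animals below all early ones. For Cnn1 the change from early to late times was -0.39 (limma adjusted p = 0.0472), with overlapping ranges. This call held in 3 of 12 fits with a single injured library left out (limma adjusted p up to 0.112) and in 6 of 10 other settings. Groups of 3 animals are too small for a test of single outlying libraries.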

How the results depend on the processing

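Members called per comparison, with the main value first, moved as follows. Sham against control went from 0 to 1 in DESeq2. At 3 dpi against control 1 became 0 with the replicate block and with only the compared groups and 2 in DESeq2. At 14 dpi against control 1 became 2 with a pseudocount of 10, the FPKM table, the length trend removed or edgeR, 3 in DESeq2 and 0 with the block or only the compared groups. At 30 dpi against control 2 became 1 with the length trend removed and 3 in DESeq2. For injured against uninjured 2 became 3 with a pseudocount of 10, in DESeq2 and without 14 dpi 3 or 30 dpi 3, where Tagln was also called. Against sham, 1 became 0 with only the compared groups at 3, 14 and 100 dpi, and at 3 dpi also with the block. From 14 to 30 dpi 1 became 2 in DESeq2, and from early to late times 2 became 1 with no filter, TMM, the FPKM table or the block. The causes of these moves were not tested. The fits of only the compared groups also had fewer samples than the main fit.

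Calls lost with only the compared groups kept their log2 change by construction: Cnn1 at 3 dpi against control (-0.96), Mylk at 14 dpi against control (1.23), Tagln at 3 and 14 dpi against sham (3.99 and 5.14) and Mylk at 100 dpi against sham (1.09). Over 45 pairs of libraries with the same replicate number the correlation of deviations from group means had a median of -0.0081 and exceeded 0.1 in 5. Over 90 pairs with different numbers the median was 0.00035, and 12 exceeded 0.1. Libraries with the same number were thus not more alike by this median, and a pairing of animals was not tested. The replicate block also ended the calls of Cnn1 at 3 dpi (-0.96), Mylk at 14 dpi (1.23), Tagln at 3 dpi against sham (3.99) and Cnn1 from early to late times (-0.39), and no other call of a member. The last was also lost with no filter (-0.39), TMM (-0.37) and the FPKM table (-0.37). With the length trend removed Mylk at 30 dpi was 0.72, and with the FPKM table the correlation of Cnn1 with Mylk was -0.591 and no longer passed. The calls of Tagln, Cnn1 and Mylk over all 6 groups held under every alternative run for them.

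Signs changed for values near 0 that were not called. Mylk at 3 dpi against sham was -0.036 with the length trend removed, -0.013 in edgeR and -0.0048 in DESeq2. Acta2 was -0.0082 at 14 dpi against sham with the length trend removed, -0.0043 from 14 to 30 dpi with the FPKM table, and for injured against uninjured 0.0499 with the FPKM table, 0.0044 in edgeR and 0.0023 in DESeq2. The late against early log ratio of Cnn1 to Acta2 was 0.0046 with the FPKM table.

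With each library left out in turn, the count of members called ran from 0 to 1 for sham against control, for 3 dpi against control and for 3, 14 and 100 dpi against sham. It ran from 0 to 2 at 14 dpi against control, and from 1 to 2 at 30 dpi against control and from early to late times. The log2 changes against control ran from -1.13 to -0.88 for Cnn1 at 3 dpi, from -0.42 to 0.0395 and -0.39 to 0.12 for Acta2 at 14 and 30 dpi, and from 1.02 to 1.46 and 0.98 to 1.11 for Mylk at 14 and 30 dpi. Against sham they ran for Tagln from 3.05 to 4.46, 4.20 to 5.96, -1.66 to 0.0197 and -0.34 to 1.07 at 3, 14, 30 and 100 dpi, for Cnn1 from -0.0848 to 0.22 at 3 dpi, for Acta2 from -0.11 to 0.25 and -0.16 to 0.33 at 14 and 30 dpi, and for Mylk from -0.19 to 0.18 and 0.81 to 1.28 at 3 and 100 dpi. From 14 to 30 dpi they ran from -0.21 to 0.31 for Acta2 and from -0.42 to 0.0148 for Mylk. Those of Cnn1 ran from -0.0321 to 0.16 between 30 and 100 dpi and from -0.44 to -0.31 from early to late times, and that of Acta2 from -0.13 to 0.0574 for injured against uninjured. The correlation with Mylk ran from -0.153 to 0.128 for Tagln and from -0.694 to -0.531 for Cnn1. The late against early log ratio ran from -0.17 to 0.12 for Cnn1 to Acta2 and from -1.07 to -0.56 for Acta2 to Mylk.

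The number of all genes called also moved between settings, from 0 to 415 at 3 dpi against control (33 as reported), 52 to 406 at 14 dpi (88) and 405 to 1558 at 30 dpi (1120). Against sham it ran from 11 to 617 at 3 dpi (96), 42 to 256 at 14 dpi (73), 281 to 1045 at 30 dpi (717) and 521 to 1154 at 100 dpi (706). It ran from 177 to 771 from 14 to 30 dpi (393) and from 0 to 383 from 30 to 100 dpi (76). Depth limits Tagln most, since 1 or 2 reads stood behind its lowest values.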
